A study of Mus musculus with 8 samples.

Results

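Cd52 and 9 genes that mark microglia, the resident macrophages of the retina, were followed in the RNA of aged mouse retinas to ask whether Cd52 moved together with the other microglial genes. The 10 genes were Cd52, Aif1, Cx3cr1, P2ry12, Tmem119, Csf1r, Trem2, Tyrobp, Cd68 and Ctss, chosen by name, and their probes were found through the transcript each probe was designed on. They make up 10 of the 22911 genes that could be named on the array and 13 of its 56605 probes. All 13 probes gave a signal well above background on all 8 arrays, and Cx3cr1, Csf1r and Cd68 were each measured by 2 probes.

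The retinas came from mice labelled 46 to 55 weeks old, with 4 samples labelled homozygous Mrp4 knockout (Mrp4-null) and 4 labelled wild-type (WT). Mrp4, also named Abcc4, encodes an efflux transporter, and the knockout mice were kept on a C57BL/6J background with no treatment. The methods speak of 3 mice as the source of tissue without saying whether a sample is a pool, so p-values measure the spread between these samples only. Each sample was hybridized to 1 one-color array, all 8 on the same slide, and each genotype filled a row of its own, so that row and genotype cannot be told apart.

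Microglia settle in the inner layers of the retina early in development and survey the tissue with fine branches. They depend on signals through the receptor Csf1r, are held in a resting state partly by the neuronal chemokine Cx3cl1 acting on Cx3cr1, and respond to damage through receptors such as P2ry12 and Trem2, the latter signalling through the adaptor Tyrobp. Cd52 is a very short protein tethered to the outer membrane by a lipid (GPI) anchor, known from lymphocytes, monocytes and macrophages, and its RNA is also found in microglia. The arrays measured whole retina, in which fewer cells of a type and less RNA per cell cannot be told apart.

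Several features of the arrays bear on every value. The targeted gene went against its label: Abcc4 had normalized log2 signals of 10.64 to 10.84 under the Mrp4-null label and 6.54 to 7.13 under the WT label, a log2 fold change of 3.92 (SE 0.14, limma adjusted p = 1.36e-05), and where its probe lies relative to the deleted part of the gene is not known. Directions below therefore follow the labels as deposited. Probes of the Y-linked genes Ddx3y, Eif2s3y, Kdm5d and Uty, 7 in all, were above background on WT 2 (6 probes), WT 3 and WT 4 (7 each) and on none of the other 5 arrays, whereas Xist, transcribed from the inactive X chromosome, gave a signal on WT 1, WT 2 and the 4 arrays with the Mrp4-null label. Signs of male tissue were thus found only under the WT label, where WT 1 alone lacked them, so sex and label can hardly be told apart. The rod genes Gnat1, Nrl, Sag and Pde6b and 4 other rod genes had a median log2 fold change of 0.03, and none of the 8 passed the test. Array 3 labelled Mrp4-null stood apart from the other 7 in the microglial genes, as described below, and part of the results are given with and without it.

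Cd52 was the 1 of the 10 genes that differed between the labels, and it was far higher on the arrays labelled Mrp4-null. The other 9 genes, from the resting markers P2ry12 and Tmem119 to the lysosomal genes Cd68 and Ctss, had log2 fold changes between -0.16 and 0.61 over their 12 probes and did not pass the test. A difference was called when it reached a fold change of 1.5 and a Benjamini-Hochberg adjusted p under 0.05 in limma, fitted over 37085 probes with usable signal. By this rule 0.545% of all tested probes were called, with 0.256% higher and 0.289% lower under the Mrp4-null label. Under other rules used below the share was 0.433% without array 3, 0.191% with the sample number as a block, and 0.647% and 1.65% in a local pooled error (LPE) test with and without adjustment. The methods name an LPE test without its settings, and the one used here takes fold changes between group medians, whereas limma takes them between means.

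Cd52, read by probe A_51_P151126, had normalized log2 signals of 10.96, 10.72, 10.84 and 10.60 on arrays 1 to 4 labelled Mrp4-null. On WT arrays 1 to 4 it had 7.62, 7.78, 8.04 and 7.78. The groups were separated by a wide gap, and the spread within each was small, with means of 10.78 ± 0.15 and 7.80 ± 0.17 (SD, n = 4 arrays each). The log2 fold change was 2.98 (SE 0.12, limma adjusted p = 1.46e-05), or 7.87-fold with a 95% interval of 6.55 to 9.46. Before normalization the processed intensity was 1264 to 2372 on the arrays labelled Mrp4-null and 186 to 255 on the WT arrays, and without array 3 the log2 fold change was 2.97.

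**Figure D1:**
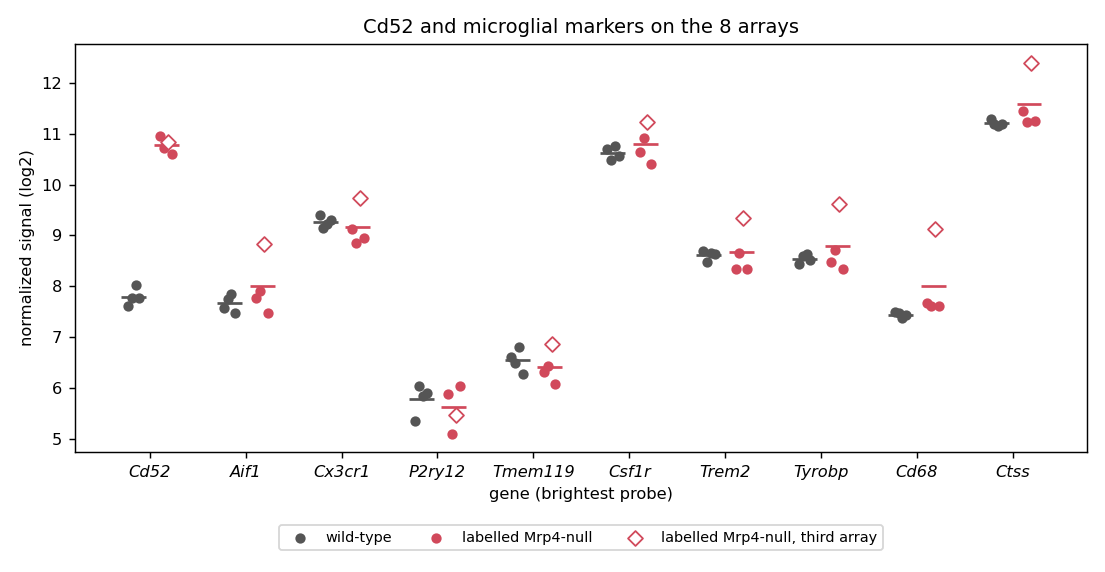
Normalized log2 signal of the brightest probe of each gene (vertical axis) on the 4 WT arrays (grey) and the 4 arrays labelled Mrp4-null (red, with array 3 as an open diamond); short lines are group means. The Cd52 points fall into a WT group from 7.62 to 8.04 and a group labelled Mrp4-null from 10.60 to 10.96, while the groups of every other gene except Cd68 overlap and array 3 lies on top in 8 of the other 9 genes.

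Among the surface receptors, Csf1r, on which microglia depend for survival, had signals of 10.65, 10.91, 11.22 and 10.40 under the Mrp4-null label and 10.69, 10.49, 10.76 and 10.56 on the WT arrays (probe A_55_P2025078). The groups overlapped, and the log2 fold change was 0.17 (SE 0.17). The second Csf1r probe, A_55_P2025073, gave 0.03 (SE 0.12).

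Cx3cr1, the receptor of the chemokine Cx3cl1, had signals of 9.13, 8.85, 9.75 and 8.94 under the Mrp4-null label and 9.41, 9.14, 9.22 and 9.30 on the WT arrays (probe A_55_P2007964). Apart from array 3, every array labelled Mrp4-null was below every WT array. The log2 fold change was -0.10 (SE 0.19) with array 3 and -0.29 (SE 0.11, limma adjusted p = 0.792) without it, and the dimmer probe A_52_P99810 gave -0.13 (SE 0.27).

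P2ry12, the ADP receptor that steers microglial processes, was dim, with signals of 5.89, 5.11, 5.49 and 6.04 under the Mrp4-null label and 5.35, 6.05, 5.85 and 5.91 on the WT arrays. The groups overlapped over most of their range. The log2 fold change was -0.16 (SE 0.23).

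Tmem119, a membrane protein widely used to tell microglia from other macrophages, had signals of 6.32, 6.43, 6.87 and 6.09 under the Mrp4-null label and 6.61, 6.49, 6.81 and 6.29 on the WT arrays. The groups overlapped, with a log2 fold change of -0.12 (SE 0.18). Trem2, a lipid-sensing receptor, had signals of 8.34, 8.66, 9.34 and 8.33 against 8.69, 8.49, 8.65 and 8.63, and its log2 fold change turned from 0.05 (SE 0.21) to -0.17 (SE 0.11) when array 3 was left out.

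Inside the cell, the Trem2 adaptor Tyrobp had signals of 8.48, 8.72, 9.62 and 8.35 under the Mrp4-null label and 8.44, 8.60, 8.63 and 8.51 on the WT arrays. Array 3 was the highest of the 8 by a wide margin and the other 3 arrays of its label straddled the WT range. The log2 fold change was 0.25 (SE 0.25), and -0.03 (SE 0.11) without array 3. Aif1, the cytoskeletal protein stained as Iba1, showed the same arrangement, with signals of 7.78, 7.92, 8.84 and 7.48 against 7.58, 7.75, 7.85 and 7.48, and its log2 fold change of 0.34 (SE 0.26) came to 0.06 (SE 0.14) without array 3.

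Cd68, a glycoprotein of lysosomal membranes, had signals of 7.67, 7.61, 9.12 and 7.61 under the Mrp4-null label and 7.49, 7.47, 7.39 and 7.44 on the WT arrays (probe A_55_P1961943). It was the only gene besides Cd52 whose groups did not overlap, an arrangement found for 4.79% of all tested probes (2.44% with the Mrp4-null label higher), and its second probe A_51_P120470 did overlap, with a log2 fold change of 0.61 (SE 0.42) and of 0.11 (SE 0.12) without array 3. For the first probe the log2 fold change was 0.56 (SE 0.32, limma adjusted p = 0.942) and was 0.18 (SE 0.08, limma adjusted p = 0.959) without array 3. Ctss, the lysosomal protease cathepsin S, had signals of 11.44, 11.22, 12.39 and 11.24 against 11.28, 11.18, 11.15 and 11.19, and its log2 fold change of 0.37 (SE 0.24) came to 0.10 (SE 0.09) without array 3. None of the 9 genes other than Cd52 passed the adjusted test, with or without array 3. Without it, Cd68 (A_55_P1961943, 95% interval 0.0024 to 0.37) and Cx3cr1 (A_55_P2007964, -0.54 to -0.04) had intervals that left out 0 before adjustment. The median over the 10 genes was 0.21 with array 3 and 0.00015 without it, against -0.01 over all tested probes.

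**Figure D2:**
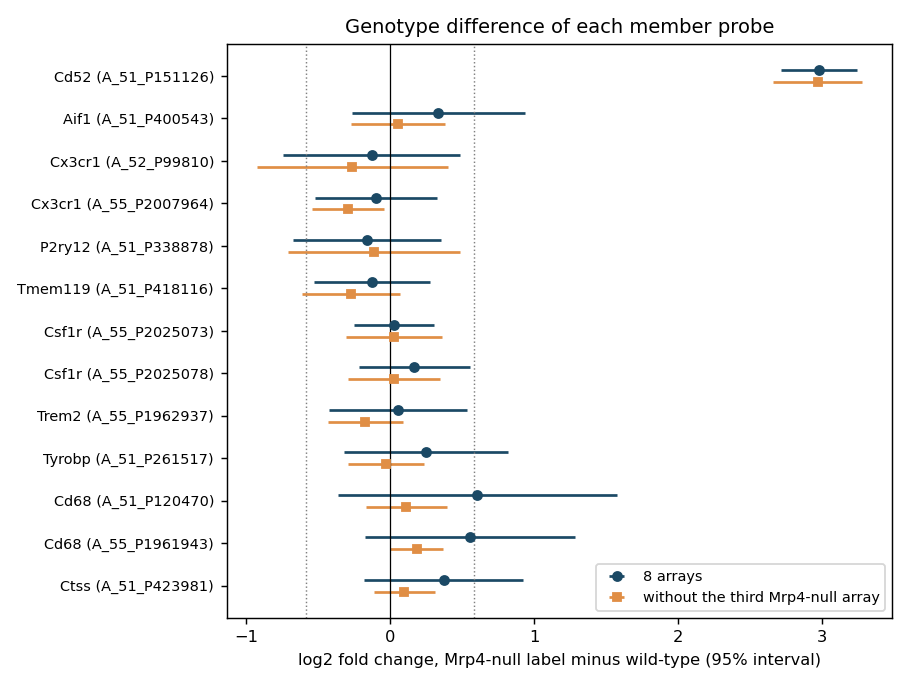
Log2 fold change (arrays labelled Mrp4-null minus WT) of each of the 13 probes with its 95% interval, from all 8 arrays (circles) and without array 3 labelled Mrp4-null (squares); dotted lines mark a 1.5-fold change. Cd52 lies at 2.98 and 2.97, and the other 12 probes lie between -0.16 and 0.61, the upper end being the dimmer Cd68 probe, with intervals that narrow and shift down for Aif1, Tyrobp, Cd68 and Ctss when array 3 is left out.

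Whether Cd52 went with another gene was tested on the signal of Cd52 minus that of the other gene on each array. Only a shift of equal size in both log2 signals cancels in this difference. This difference was larger on the arrays labelled Mrp4-null for all 9 genes compared. The smallest excess was against Cd68, at 2.42 on the log2 scale (95% interval 1.503 to 3.339), followed by Ctss at 2.60 (1.92 to 3.29) and Aif1 at 2.64 (1.96 to 3.33). The greatest was against P2ry12, at 3.14 (2.50 to 3.77). Each of the 9 exact two-sided permutation tests gave p = 0.0286, also after Benjamini-Hochberg adjustment over the 9, which is the smallest value that the 70 groupings of 4 and 4 arrays allow. All 9 share the same Cd52 values, whose groups were already widely separated, so they restate the Cd52 difference and are not 9 separate results. Without array 3 the 9 excesses lay between 2.78 and 3.26. An exact sign-flip permutation test over same-numbered arrays, which with 4 pairs cannot go below 0.125, gave p = 0.125 for each of the 9.

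Array 3 labelled Mrp4-null carried the highest signal of the 8 arrays in 8 of the 9 other genes by their brightest probe, all except P2ry12, whereas it was the highest array for 10.7% of all tested probes. Set against the mean of the other 3 arrays of its label, it was higher by 1.49 for Cd68, 1.12 for Aif1, 1.10 for Tyrobp and 1.09 for Ctss (log2). The excess was 0.89 for Trem2, 0.77 for Cx3cr1, 0.59 for Tmem119 and 0.57 for Csf1r. The second Csf1r probe, A_55_P2025073, had no such excess (-0.0017) and was highest on array 2 of that label. For Cd52 it was 0.08 and for P2ry12 it was -0.20. The first 7 of these genes stood at least 1.5-fold above the other 3 arrays, as did 2.17% of all tested probes, and the median over all probes was -0.01. Ranked by this excess among 16092 genes, Cd68 took place 107, the other 7 genes places 174 to 445, Cd52 place 5036 and P2ry12 place 13635. Under a shift to the 75th percentile and under cyclic loess, alternatives chosen after seeing the data, the excess of Cd68 was between 1.47 and 1.51 and that of Cd52 between 0.05 and 0.08. Why this array was high in these genes was not tested.

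**Figure D3:**
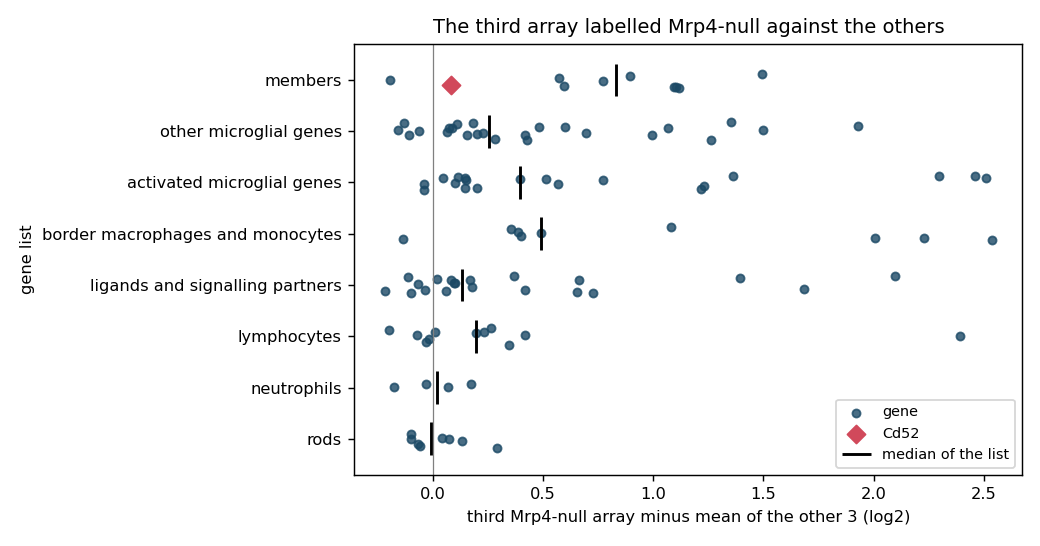
Signal on array 3 labelled Mrp4-null minus the mean of the other 3 arrays of that label (log2, horizontal axis) for each gene of 8 lists, with the median of each list as a bar and Cd52 as a diamond. The 10 genes have a median of 0.83, while Cd52 itself lies at 0.08, and the 8 rod genes have a median of -0.01.

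The members' promoters were read for the core letters GAGGAA, to which PU.1, the factor that directs myeloid genes, is known to bind. Both strands were searched, and on the opposite strand the same core reads TTCCTC. The RefSeq promoter table (GRCm38.p6, 250 bases before to 50 after the start) held 6 of the 10 genes, and the letters occurred on either strand in Aif1, Trem2, Cd68 and Ctss and not in Cx3cr1 and P2ry12. Over all 32851 promoters of the table, 28.3% held them. The 4 promoters with a match are shown 5′ to 3′ with the match in capitals, 1 each in Aif1 and Trem2 and 2 each in Cd68 and Ctss. A match is a description of these letters and not a binding site, and its relation to the signal on any array was not tested.
Aif1 (chr17:35176003-35176302, minus strand): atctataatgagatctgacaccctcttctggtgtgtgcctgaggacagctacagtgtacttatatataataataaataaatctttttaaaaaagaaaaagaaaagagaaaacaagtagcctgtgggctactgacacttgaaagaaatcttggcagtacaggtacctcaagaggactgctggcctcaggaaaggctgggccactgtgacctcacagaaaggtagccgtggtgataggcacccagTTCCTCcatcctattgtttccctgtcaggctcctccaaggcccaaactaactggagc
Trem2 (chr17:48346151-48346450, plus strand): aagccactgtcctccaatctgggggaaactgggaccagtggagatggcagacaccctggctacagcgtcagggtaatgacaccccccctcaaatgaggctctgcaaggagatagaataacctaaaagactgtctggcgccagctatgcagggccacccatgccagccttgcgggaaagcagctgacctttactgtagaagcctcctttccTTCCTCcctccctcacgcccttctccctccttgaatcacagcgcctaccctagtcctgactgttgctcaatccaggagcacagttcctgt
Cd68 (chr11:69666121-69666420, minus strand): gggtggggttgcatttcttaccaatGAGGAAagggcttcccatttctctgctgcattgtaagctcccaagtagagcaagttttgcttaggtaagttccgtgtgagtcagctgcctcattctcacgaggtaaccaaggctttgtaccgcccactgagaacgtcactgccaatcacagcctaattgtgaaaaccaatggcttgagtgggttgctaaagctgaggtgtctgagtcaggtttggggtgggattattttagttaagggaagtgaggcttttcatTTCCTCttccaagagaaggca
Ctss (chr3:95526536-95526835, plus strand): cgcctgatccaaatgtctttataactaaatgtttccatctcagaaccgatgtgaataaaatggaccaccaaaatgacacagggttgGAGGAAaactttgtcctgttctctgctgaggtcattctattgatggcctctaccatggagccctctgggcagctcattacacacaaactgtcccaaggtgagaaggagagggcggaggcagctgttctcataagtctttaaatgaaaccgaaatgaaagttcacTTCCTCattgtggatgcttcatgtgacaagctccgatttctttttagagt

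The 10 genes were also compared within each label. For each of the 45 pairs of genes, Pearson's r was computed over the 8 arrays after subtracting each group's mean, with an exact permutation of arrays within groups. The 36 pairs without Cd52 had a median r of 0.84, and 28 of them were positive. The tightest were Cd68 with Ctss (r = 0.99, rho = 0.98) and Aif1 with Tyrobp (r = 0.98, rho = 0.93), each with a permutation p of 0.0052 for r and 0.0104 for rho and an adjusted permutation p of 0.0651 and 0.109. None of the 36 pairs had an adjusted p under 0.05, and 11 had an unadjusted p under 0.05. After leaving out the 2 arrays farthest from the median of the first gene of a pair, r was 0.91 for Cd68 with Ctss and 0.83 for Aif1 with Tyrobp. The median over the 36 pairs came to 0.37, with 25 positive.

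The 9 pairs with Cd52 had r between 0.12 (Trem2) and 0.46 (Tmem119) with a median of 0.21, rho between 0.05 and 0.55, and a smallest exact permutation p of 0.271 (0.406 adjusted) for r. Leaving out the 2 arrays farthest from the median of Cd52, WT 3 and array 1 labelled Mrp4-null, brought the median r of these 9 pairs to 0.63, with 8 positive. With array 3 left out first, leaving out the 2 farthest of the remaining arrays gave 0.08, with 5 positive. Without array 3 alone, a setting chosen after seeing the data, the median r of the other 36 pairs was -0.07, with 14 positive, and that of the 9 Cd52 pairs was 0.25, with 7 positive. The median relation among the other genes thus rested in large part on array 3. Single pairs stayed strong without it, with r of 0.89 for Cx3cr1 with Ctss, 0.88 for Aif1 with Tyrobp and -0.92 for P2ry12 with Trem2. In that setting 6 of the 36 pairs had an unadjusted permutation p under 0.05, and 0 after adjustment. Whether the Cd52 pairs differ from the other pairs was not tested.

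**Figure D4:**
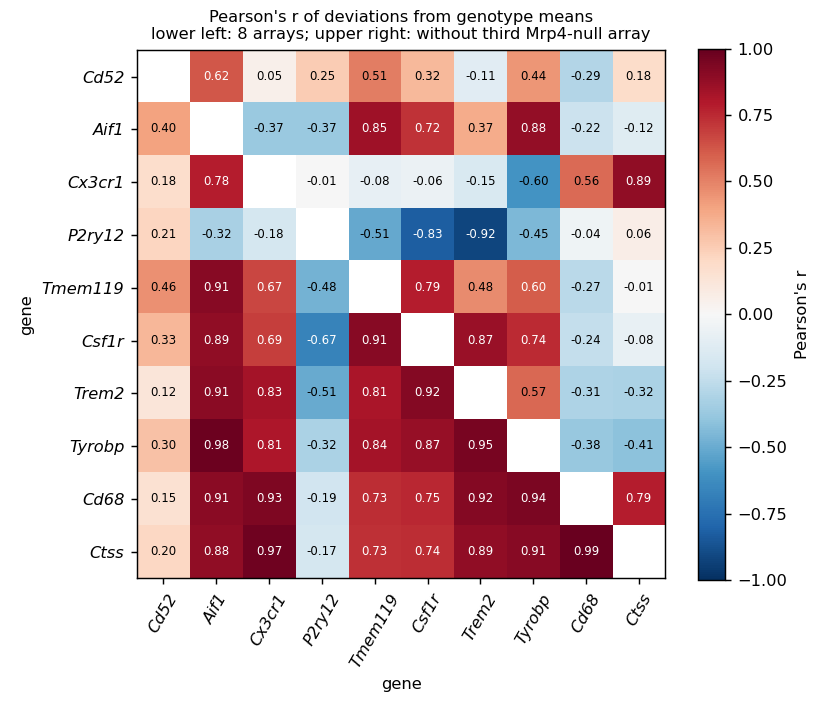
Pearson's r of each pair of genes over deviations from the group means, with all 8 arrays (lower left) and without array 3 labelled Mrp4-null (upper right); color gives r from -1 to 1. The block of high values among Aif1, Cx3cr1, Tmem119, Csf1r, Trem2, Tyrobp, Cd68 and Ctss in the lower left, which leaves out Cd52 and P2ry12, breaks up in the upper right. Some of its pairs stay high there.

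The 5 genes whose arrangement over the 8 arrays was nearest to that of Cd52 held none of the other 9. Likeness was taken as the mean absolute difference over the 8 arrays between log2 signals, each gene centred on its own mean, over 16087 genes. It depends largely on the size of the label difference, so the other 9, with their small fold changes, could not be among the nearest. The genes were picked for this pattern, so their values are given with no test. Fgf17, a growth factor gene, and the noncoding gene Gm13807 were among the 5 but were not well above background on any WT array, so that their distances rest on WT values that were not resolved, and they were at least 1.37-fold and 4.58-fold higher on the arrays labelled Mrp4-null. Of the 3 others Myom2, a sarcomere protein gene, was nearest at 0.38 with signals of 8.82, 8.40, 8.54 and 8.82 against 5.08, 5.18, 4.54 and 4.87, a log2 fold change of 3.73 (SE 0.16).

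Masp2, a serine protease of the lectin complement pathway, was at 0.45 with a log2 fold change of 2.08 (SE 0.14). The angiotensin receptor gene Agtr1a was at 0.47 with a log2 fold change of 2.65 (SE 0.34) and was well above background on 3 of 4 WT arrays. Of the 5 genes, Masp2 shares chromosome 4 with Cd52, and the others lie on chromosomes 2, 8, 13 and 14. Among the microglial genes the nearest to Cd52 was Cd68 at place 187 (1.21), then Ctss at 489, Aif1 at 573 and Tyrobp at 1022, and P2ry12 was the farthest at 14412 (1.57). This ordering is given as a description.

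Cd52 was set beside its neighbours on chromosome 4, in the gene order of assembly GRCm38.p6. Of the 10 tested genes on each side, 1 was called. Crybg2, the next tested gene on one side and a member of the crystallin beta-gamma domain family, had signals of 5.65, 5.56, 5.65 and 5.85 under the Mrp4-null label and 4.75, 4.74, 4.47 and 4.49 on the WT arrays. The groups did not overlap, and the log2 fold change was 1.07 (SE 0.10, limma adjusted p = 0.00253). Its call was lost under normexp background correction, where the log2 fold change was 0.39, with the sample number as a block (adjusted p = 0.0823) and in the adjusted LPE test (adjusted p = 0.0867).

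Beyond Crybg2 on the same side, Lin28a (log2 fold change -0.19, SE 0.13) and Dhdds (-0.21, SE 0.09) did not pass, and on the opposite side Ubxn11 (0.28, SE 0.11), Sh3bgrl3 (0.05, SE 0.11) and Cep85 (-0.30, SE 0.11) did not pass either. The median over the 20 neighbours was -0.03, 9 were higher, 8 had groups that did not overlap, against 4.79% of all tested probes, and 12 had an unadjusted p under 0.05, against 6.46%. On chromosome 4 as a whole, 22 of 1015 tested genes (2.17%) had a called probe, compared with 0.572% of all tested genes.

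**Figure D5:**
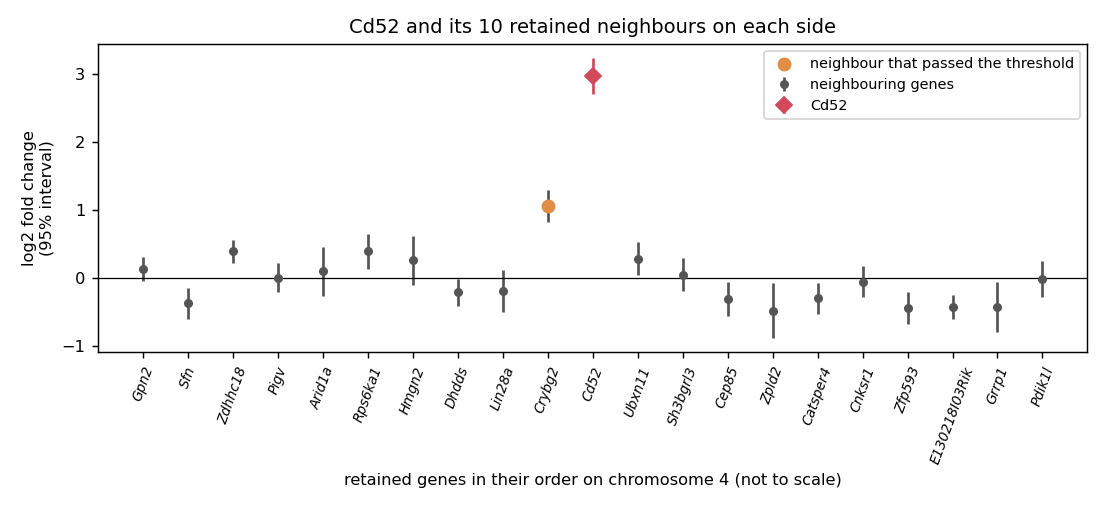
Log2 fold change (arrays labelled Mrp4-null minus WT) with its 95% interval for Cd52 (diamond) and the 10 tested genes on each side of it, in gene order and not to scale. Cd52 stands at 2.98, Crybg2 beside it at 1.07 and the other 19 neighbours lie between -0.48 and 0.40.

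Other genes known from microglia were read from a list of 30, of which 24 had a tested probe. None of the 24 was called higher on the arrays labelled Mrp4-null and 1 was called lower. This was Slc2a5, the fructose transporter GLUT5 of resting microglia, with signals of 5.09, 5.18, 5.36 and 4.95 against 6.21, 6.14, 5.996 and 6.20. All arrays labelled Mrp4-null were below all WT arrays, and the log2 fold change was -0.99 (SE 0.10, limma adjusted p = 0.00366). This call was lost with the sample number as a block (adjusted p = 0.109) and under normexp background correction, where the log2 fold change was -0.45, and Slc2a5 also lies on chromosome 4. Over the 24 genes the median log2 fold change was 0.14, and -0.0060 without array 3.

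The 2 brightest probes of that list, annotated to the lectin Siglech (0.15, SE 0.10) and the integrin Itgam (0.25, SE 0.16), did not pass. Their signals were very high for such genes in whole retina, 15.78 to 16.15 for Siglech and 13.25 to 14.04 for Itgam, and whether these probes read those genes was not tested. Nor did the transcription factor Irf8 pass (0.40, SE 0.26). On array 3, 12 of the 24 genes had their highest signal. Spi1, the gene of the myeloid transcription factor PU.1, and Ptprc, the pan-leukocyte surface gene Cd45, had no tested probe.

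Genes that rise in activated microglia were represented by 19 of 25 listed genes. None was called, and their median log2 fold change was 0.05, and -0.02 without array 3. The brightest, the ferritin gene Fth1 and the apolipoprotein gene Apoe, had log2 fold changes of -0.08 and -0.05. Ch25h, which makes 25-hydroxycholesterol, had the highest value at 1.68 (SE 0.53, limma adjusted p = 0.450), with signals of 6.06, 5.71, 8.08 and 5.56 against 5.20, 4.83, 4.57 and 4.10, and 1.11 (SE 0.26) without array 3. In the LPE test Ch25h was called, with a fold change between medians of 2.28 (LPE adjusted p = 0.0119). The chemokine gene Ccl6 had 0.67 (SE 0.54), with 8.57 on array 3 and 5.69 to 6.26 on the other 7, and 0.04 (SE 0.14) without array 3. In this list 11 genes were highest on array 3, and 7 of them stood at least 1.5-fold above the other 3 arrays of its label.

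Ligands and signalling partners of the 10 genes were measured by 20 of 21 listed genes, none of which was called, with a median log2 fold change of 0.08 and of -0.01 without array 3. Csf1 and Il34, the ligands of Csf1r, had log2 fold changes of 0.12 (SE 0.18) and -0.04 (SE 0.09), and Cx3cl1, the ligand of Cx3cr1, had -0.12 (SE 0.07), these 3 being named for their role. Inpp5d, the phosphatase SHIP1 that acts downstream of Trem2 and Tyrobp, came nearest to a call at 0.61 (SE 0.11, limma adjusted p = 0.0705), with 7.78, 7.87, 8.02 and 7.90 against 7.51, 7.22, 7.35 and 7.05. The brightest, the protease inhibitor Cst3 and the G protein Gnai2, had log2 fold changes of -0.0068 and 0.011.

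Other leukocytes that carry Cd52 were read from further lists. Of 15 genes of border macrophages and monocytes, 9 had a tested probe and none was called, while the median log2 fold change was 0.52, and 0.31 without array 3. In this list Ms4a7 was at 2.82-fold (limma adjusted p = 0.674), and 1.81-fold without array 3, and Pf4 at 2.29-fold (limma adjusted p = 0.658), each well above background on 3 of 4 WT arrays, and the brightest genes Ly6c1 and Ly6c2, which endothelium also expresses, had log2 fold changes of 0.56 (SE 0.13, limma adjusted p = 0.169) and 0.52 (SE 0.15, limma adjusted p = 0.340). Ms4a7 and Pf4 met the background filter only through the Mrp4-null label, where they were higher, and another gene of the list only through WT. The median of the list includes all of them. The summed processed intensity of the list was 6504 to 11718 on the arrays labelled Mrp4-null and 5381 to 7481 on the WT arrays. Mrc1, Cd163, F13a1 and Ccr2, which define these cells, were not above background on every array of either label.

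Of 18 lymphocyte genes 11 had a tested probe and none was called, with a median of 0.21 and of 0.14 without array 3. Gzma, a protease of cytotoxic cells, cleared background on the 4 arrays with the Mrp4-null label and on no WT array. It was at least 1.37-fold higher, and no p-value is given because its WT values were not resolved. Cd5, well above background on 2 of 4 WT arrays, had 0.91 (SE 0.30, limma adjusted p = 0.507). Both met the background filter only through the Mrp4-null label, as did some other genes of the list, and the median includes them. Klrb1c and Cd4 were the brightest of the list, with 0.03 and 0.07. The defining genes Cd3g, Cd8a, Cd79a and Ms4a1 were not above background on every array of either label, and the summed processed intensity was 3263 to 4171 on the arrays labelled Mrp4-null and 2799 to 3804 on the WT arrays. The part of these cells in the Cd52 difference was not tested.

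Of 10 neutrophil genes only 4 had a tested probe and none was called, with Csf3r at 0.22 (SE 0.10), Mpo at 0.21 (SE 0.12) and Elane at 0.00074. The Csf3r probe gave 16.01 to 16.46, very high for a neutrophil gene in whole retina, and whether it reads Csf3r was not tested. S100a8, S100a9 and Retnlg had no tested probe. Among 10 other GPI-anchored surface proteins of leukocytes, the class to which Cd52 belongs, 9 were tested, Cd14 among them, which is also on the list of other microglial genes, and none was called, with a median of 0.04, and -0.02 without array 3. Prnp and Thy1, the brightest, had -0.04 and -0.06, Ly6a had 0.52 (SE 0.15, limma adjusted p = 0.374), and Cd55 had -0.78 (SE 0.22, limma adjusted p = 0.344) with 1 of 4 arrays labelled Mrp4-null well above background. Over the lists of microglial, activated, partner, border macrophage, lymphocyte, neutrophil and GPI-anchored genes, Slc2a5 was the only gene to pass in limma. This holds for the main fit, and counts under the alternatives are given below.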

How the data were processed

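Retinal RNA was labelled with Cy3 and hybridized to 8 one-color Agilent arrays, 4 with samples labelled Mrp4-null and 4 WT. For each array the authors deposited scanner files with a processed intensity per spot, which Agilent Feature Extraction 11.0.1.1 had corrected for background without scaling arrays to each other. They also deposited a table of signal values, which equalled the mean processed intensity of each probe.

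Of 62976 spots, 59305 were not controls and represented 56605 probes. Outlier spots (78 to 143 per array) were left out, and no spot was saturated. Log2 processed intensities were averaged per probe, and a probe was tested if at least 1 genotype had it well above background on each array that measured it, which left 37085 probes of 16093 named genes. On single arrays 66.0% to 69.9% of probes were well above background and the 75th percentile of signal was 678 to 1082, and the number of arrays limits the precision. Values were quantile-normalized and fitted with limma 3.58.1 (R 4.3.3), a model of genotype alone, with Benjamini-Hochberg adjustment over the 37085 probes. The brightest probe stood for a gene in lists and pairs. A bound ("at least") sets a group below background at the lowest signal of a probe well above background on each array.

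Transcript accessions of the files named 32994 probes (58.3%) through a RefSeq gene table of GRCm38.p6, which differs from the build of the array design, so no gene coordinates are given. The genes named are the 10 members, listed genes that passed, the 2 brightest genes and the 2 with the greatest absolute log2 fold change of each list, the 3 nearest tested neighbours of Cd52 on each side and any called among 10, the 5 genes most like Cd52, Abcc4 and sex-linked genes, and 1 gene that this rule names is not reported here. Members and lists were chosen with earlier results of these data known. Genes named for their role or for having no tested probe were added after their values were seen.

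Same-numbered samples of the 2 labels deviated from their group means with correlations of -0.29, -0.69, 0.03 and 0.41, so the numbers were not taken as pairs. The results were recomputed with cyclic loess, with arrays shifted to their 75th percentile, with normexp correction (offset 50) of median spot and background signals, other filters on dim probes, outlier spots kept, the deposited table, an LPE test rebuilt here, since the methods name the test without its settings (differences of group medians, variance pooled by intensity, with and without adjustment), robust variances with an intensity trend, a block for the sample number, adjusted p alone, every probe of a gene and each array left out in turn.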

Additional observations from a re-analysis of the deposited data

Results flagged for a closer look

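In 26 groups of 4 arrays (13 probes in each label), the array farthest from the others was set against the group's range, and the gap exceeded Dixon's 95% critical value in 4 of them. Chance gives about 1 in 20 groups, and over all probes the gap was exceeded in 5.72% of groups labelled Mrp4-null and 4.53% of WT groups.

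Cd68 accounted for 3 of the 4. On array 3 labelled Mrp4-null, both Cd68 probes lay far above the other arrays of the label, with gaps of 0.960 of the range for A_55_P1961943 (9.12 against 7.61 to 7.67) and 0.910 for A_51_P120470 (7.23 against 5.16 to 5.34). The dimmer of these probes, A_51_P120470, also had a low value on WT 3, 4.87 against 5.22 to 5.24, a gap of 0.950 that the brighter probe did not share.

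The dimmer Cx3cr1 probe A_52_P99810 had a low value on array 2 labelled Mrp4-null, 4.39 against 5.48 to 5.68, a gap of 0.842. The brighter Cx3cr1 probe gave no such gap.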

How the results depend on the processing

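Cd52 was called under all 20 alternatives, with log2 fold changes of 2.70 to 3.06, an adjusted p of at most 0.00394 and 2.91 to 3.06 when single arrays were left out, and it stayed the only one of the 10 genes called. The other 12 probes gave 240 values between -0.30 and 0.80, of which 0 passed and 13 turned in sign. In the LPE test, with or without adjustment, which takes differences of medians in place of means, Cx3cr1 (A_52_P99810) was at 0.13, Csf1r (A_55_P2025073) at -0.039 and Trem2 at -0.14. The other turns came with array 2 or 3 labelled Mrp4-null or WT 2 left out, and over single arrays left out the values ranged from -0.26 to 0.17 and from -0.29 to 0.0056 for the Cx3cr1 probes, -0.30 to 0.013 for P2ry12, -0.071 to 0.083 for Csf1r (A_55_P2025073), -0.17 to 0.16 for Trem2 and -0.026 to 0.40 for Tyrobp.

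Over the whole array 202 probes were called. The unadjusted LPE test called 613, and leaving out single arrays gave 117 to 188, with 131 without WT 2, 129 without WT 3 and 117 without WT 4. With the sample number as a replicate block 71 probes were called and Cd52 remained among them (adjusted p = 0.00394), no array correlated best with its own number, and the sign-flip test over same-numbered pairs, which cannot pass with 4 pairs, passed 0 of the 9 differences of Cd52 from another gene (p = 0.125). Under the other alternatives with a test all 9 passed, with 2.27 to 3.14, and 2.25 to 3.33 when single arrays were left out. The 9 share the same Cd52 values. Related pairs of genes numbered 0, and 5 after a shift to the 75th percentile (smallest adjusted p 0.0469).

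Of the 95 tested genes on the 7 lists of other genes, the unadjusted LPE test called 8 (8.42%, against 1.65% of all probes), 3 of them among the 9 of border macrophages and monocytes, and the adjusted LPE test called Ch25h and Slc2a5. Over the 20 alternatives the count of called border macrophage and monocyte genes lay between 0 and 3 and moved under 4. The lymphocyte count lay between 0 and 2 and moved under 2. The counts of other microglial, activated and partner genes lay between 0 and 1, and those of neutrophil and GPI-anchored genes did not move. P2ry12 and the dimmer probes of Cx3cr1 and Cd68 lay nearest to background, where small differences are not resolved with 4 arrays a label.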

Other observations

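The genes with the greatest excess of array 3 labelled Mrp4-null over the other 3 arrays of its label, chosen after their values were seen, are named here with their known roles. Lcn2, an iron-sequestering protein of the acute phase, was at 13.24 on array 3 and between 8.20 and 8.63 on the other 7 arrays, 29.9-fold above the other 3 of its label. Serpina3n, a protease inhibitor of reactive glia, was 18.7-fold above them, Acp5, an acid phosphatase of macrophages and osteoclasts, 15.9-fold, the monocyte-attracting chemokine Ccl2 15.6-fold and the interferon-induced chemokine Cxcl10 14.7-fold. The noncoding gene 2900057B20Rik (13.6-fold), the interferon-inducible Ifi204 (11.7-fold), Timp1 (11.3-fold), the complement factor Cfb (11.0-fold) and the antigen-presenting H2-Eb1 (10.8-fold) followed. None of these genes was called between the labels, and Cd52 on that array was 1.06-fold the mean of the other 3.

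The median excess of array 3 was 0.49 for the 9 border macrophage and monocyte genes, 0.39 for the 19 activated microglial genes, 0.25 for the 24 other microglial genes, 0.20 for the 11 lymphocyte genes, 0.13 for the 20 ligands and partners, 0.11 for the 9 GPI-anchored proteins and 0.02 for the 4 neutrophil genes (log2). Differences between lists were not tested, and Ccl5, a chemokine on the lymphocyte list, stood 2.39 above.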
